A study of Mus musculus with 26 samples.

Results

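The sites described here are places in the mouse genome where the Mediator subunit MED1 was found in all 4 MED1 peak lists of 3T3-L1 adipocytes, with and without rosiglitazone, and where the peaks of 5 transcription factors did not all meet. They were chosen by joining the 4 MED1 lists into sites (200 bp windows that overlap by at least 1 bp, chained), keeping the 1236 of 15759 sites present in every list, and removing the 339 that overlapped peaks of CEBPa, CEBPb, ATF2, JUND and FOSL2 together. That left 897 sites, 72.6% of the constant sites (95% Wilson interval 70.0 to 75.0%). Wilson intervals here cover counting error only. Presence in the MED1 and factor lists chose the members, so their MED1 and factor values are a description and carry no test.

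3T3-L1 is a mouse fibroblast line that turns into fat cells in culture. Mature adipocytes of this line were either left untreated or given 1 µM rosiglitazone, a drug that activates the nuclear receptor PPARg, dissolved in DMSO. Of the 26 samples, 15 ChIP-seq libraries with a peak list each were used: 2 untreated and 2 rosiglitazone lists for MED1, 1 list per condition for the cofactors CBP, p300 and NCOR, and 1 untreated list for each of the 5 factors. All groups share the cell line, and the ChIP-seq labels state no treatment time. The peak names of the second MED1 rosiglitazone list carry 1h and those of the NCOR rosiglitazone list carry 30m, so time may differ between lists. The replicate 1 lists of MED1 have peak names that end in B in both conditions, unlike the replicate 2 lists. The labels do not state separate cultures for the MED1 replicates, and the spread between them can be technical. The lists hold positions only, so adipocyte marker genes were not checked, and genes near the sites were not analysed here.

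MED1 belongs to Mediator, the large complex that connects DNA-bound activators to RNA polymerase II, and it is a contact point for nuclear receptors such as PPARg. CEBPa and CEBPb are C/EBP family factors that drive the adipocyte programme together with PPARg. ATF2 is a basic leucine zipper factor of the ATF/CREB family. JUND and FOSL2 are members of the Jun and Fos families, which pair to form AP-1. CBP and p300 are related histone acetyltransferases that act as coactivators, and NCOR is a corepressor that brings histone deacetylase activity to nuclear receptors and other factors.

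The 15 lists held 4656 to 28491 peaks, each a 200 bp window with a score set by the authors. The MED1 lists held 5660 and 4656 peaks untreated (replicates 1 and 2) and 8069 and 7104 after rosiglitazone. Read depth is unknown from these files, and scores were compared only within a list. A site's percentile is the percentage of peaks in that list with a lower score, with peaks of the same score counted at 50%. Since a percentile also depends on how many weak peaks a list holds, the sites were in addition ranked from 0 to 100 among the 1236 constant sites of each list, a scale that list length does not set.

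The 897 sites split into a few recurring factor combinations. Of 31 combinations possible without all 5 factors, 27 were seen, and the 4 commonest held 604 sites. CEBPa, CEBPb, ATF2 and JUND without FOSL2 was the commonest, at 227 sites (25.3%). The same set without JUND, that is both C/EBP factors with ATF2, followed at 167 sites (18.6%). The AP-1 pair with ATF2 and without C/EBP stood at 118 sites (13.2%), and ATF2 with JUND alone at 92 (10.3%). ATF2 with no other factor marked 57 sites (6.4%), and 42 sites (4.7%) held none of the 5. At the other end, 11 combinations had 5 or fewer sites each and 26 sites together.

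**Figure D1:**
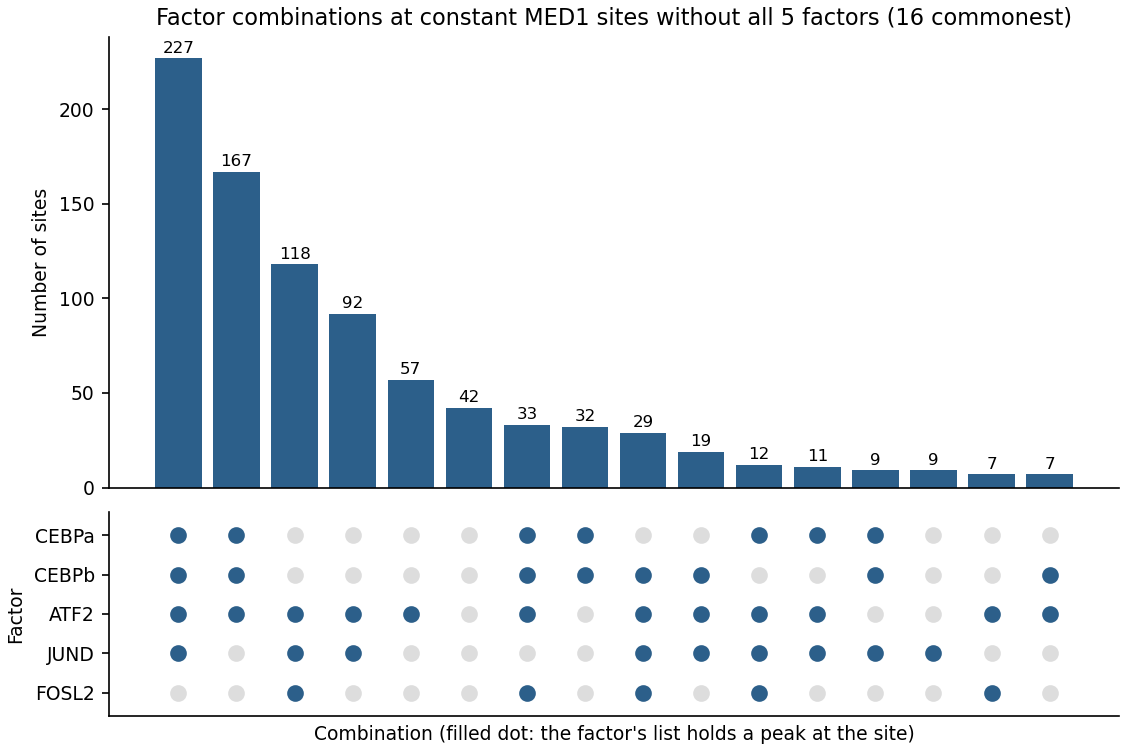
Bars give the number of constant MED1 sites without all 5 factors in each of the 16 commonest factor combinations, and filled dots below each bar name the factors whose list held a peak there. The highest bar, 227 sites, lacks only FOSL2, and ATF2 is filled under each of the 5 highest bars.

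ATF2 was the most frequent of the 5 factors at these sites, with a peak at 786 of 897 (87.6%, 85.3 to 89.6%). JUND was at 538 sites (60.0%), CEBPb at 537 (59.9%), CEBPa at 506 (56.4%) and FOSL2 at 216 (24.1%, 21.4 to 27.0%). The shares are counted on the same sites, and the order of JUND, CEBPb and CEBPa was not tested. The C/EBP factors mostly came together: 475 sites held both, 62 held CEBPb without CEBPa, and 31 held CEBPa without CEBPb. AP-1 was less even, with JUND without FOSL2 at 368 sites, FOSL2 without JUND at 46 and both at 170. The rule shapes these splits, since the 339 constant sites it removed held both AP-1 factors and both C/EBP factors. With those sites counted, JUND with FOSL2 would outnumber JUND without FOSL2. For scale, over all 15759 MED1 sites the shares were 54.2% for ATF2, 38.4% for JUND, 31.7% for CEBPb, 28.3% for CEBPa and 26.0% for FOSL2. These shares were not tested against each other, because removing the sites with all 5 factors lowers each of them by construction.

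Most of the sites with 4 factors lacked FOSL2. There were 306 such sites, and the missing factor was FOSL2 at 227 (74.2%), JUND at 33, CEBPa at 29, CEBPb at 12 and ATF2 at 5. The rule removed the 339 constant sites where FOSL2 joined the other 4 factors. FOSL2 was thus present at more of the constant sites with CEBPa, CEBPb, ATF2 and JUND than it was missing from. A peak of the missing factor lay within 1000 bp of the site at 43 of the 306 (14.1%). The other members held 3 factors (331 sites), 2 (148), 1 (70) or 0 (42). By family, 333 members held ATF2, C/EBP and AP-1 peaks but not all 5 factors. A further 217 held ATF2 with AP-1, 179 ATF2 with C/EBP, and 21 C/EBP with AP-1. Only C/EBP was at 35 sites and only AP-1 at 13.

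Where CEBPa, CEBPb or ATF2 was present, its own peak was usually above the middle of its list, while JUND and FOSL2 peaks stood nearer the middle. Over the members holding the factor, the median percentile was 78.4 for CEBPa, 78.5 for CEBPb, 76.6 for ATF2, 55.2 for JUND and 50.9 for FOSL2. At the 339 constant sites with all 5 factors the medians were 85.3, 87.3, 91.4, 77.2 and 62.0. ATF2 on its own (57 sites) had a median percentile of 54.9, against 82.0 where 3 other factors were present (301 sites). For JUND the corresponding values were 51.2 (9 sites) and 53.1 (273 sites).

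The 2 edges of the rule can be read directly. Members just inside the factor edge, with 4 of 5 factors, had median MED1 percentiles of 81.1 and 83.0 untreated and 87.8 and 88.8 after rosiglitazone (replicates 1 and 2). The all-5 sites just outside it had 84.4, 82.4, 88.4 and 86.2. On the list edge, 1184 sites without all 5 factors were in 3 of 4 lists. The missing list was untreated replicate 2 at 480 of them, untreated replicate 1 at 321, rosiglitazone replicate 2 at 263 and rosiglitazone replicate 1 at 120. Those lacking only untreated replicate 2 had median percentiles of 61.2, 74.7 and 63.0 in the other lists. Among the members, 46 had a percentile under 10 in at least 1 list.

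MED1 peaks at the 897 sites mostly stood at high percentiles in every list, though with a long lower tail. The median percentile was 77.4 in untreated replicate 1 and 76.7 in untreated replicate 2, then 86.3 and 84.5 in rosiglitazone replicates 1 and 2. The lowest member stood at 3.3, 6.4, 2.9 and 9.2, and the highest at 100.0, 99.9, 100.0 and 100.0. The middle 50% of members spanned 54.7 to 90.5 in untreated replicate 1 and 70.4 to 94.4 in rosiglitazone replicate 1, so the conditions overlap widely. At 117 members (13.0%) the percentile was at least 90 in all 4 lists. High percentiles are not particular to the members among constant sites. Their median rank among constant sites was 46.9 and 46.2 untreated and 48.9 and 47.3 after rosiglitazone (replicates 1 and 2). The sites with all 5 factors had 59.3, 55.0, 54.7 and 51.1 in the same order.

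**Figure D2:**
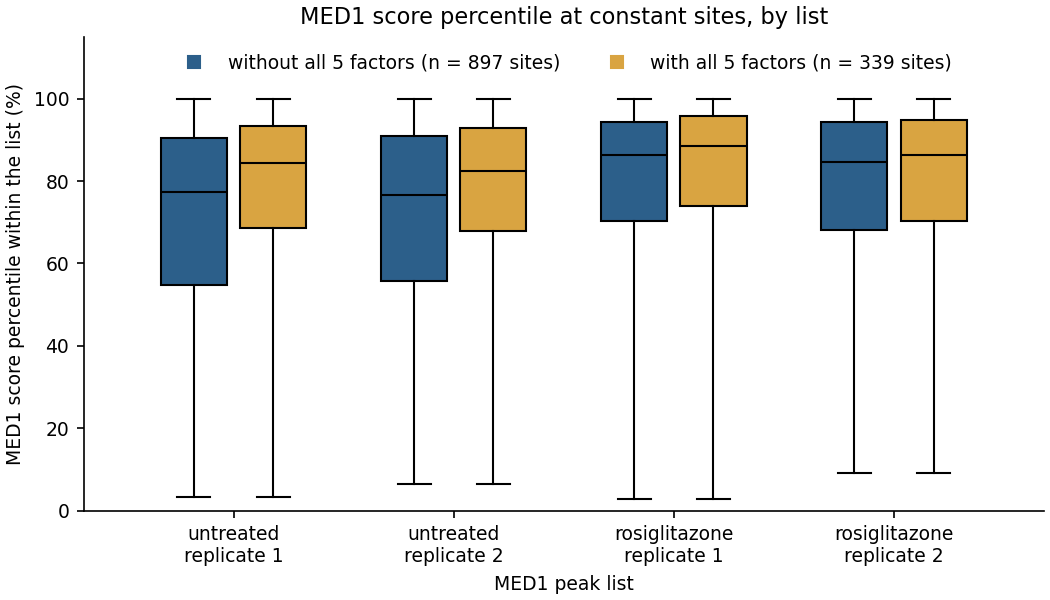
MED1 score percentile (vertical axis, percent of the list's peaks with a lower score, ties counted at 50%) in each of the 4 MED1 lists, for the 897 constant sites without all 5 factors and the 339 with them. Boxes show the middle 50% of sites and the median, and whiskers reach the lowest and highest site. Both groups have higher medians in the rosiglitazone lists, and the boxes overlap in every list.

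The median percentile difference, rosiglitazone minus untreated, was 5.3 points over the members, with 4.4 points in replicate pair 1 and 4.3 in pair 2. The rosiglitazone lists are longer, and with every list cut to its strongest 4656 peaks, which also changes the members, the median difference was 0.1. On the rank among constant sites it was 0.5 (0.7 in pair 1 and 1.4 in pair 2). The percentile was higher after rosiglitazone in both pairs at 481 members (53.6%) and lower in both at 151 (16.8%). Over all 1236 constant sites, which include the members, those shares were 50.9% and 18.4%. At the 339 sites with all 5 factors they were 43.7% and 22.7%. The rank was higher in both pairs at 320 members (35.7%, against 33.0% over all constant sites). It was lower in both at 263 (29.3%, against 32.4%). A rank difference of more than 20 points the same way in both pairs occurred at 67 members upward (7.47%, against 6.80% of all constant sites) and 50 downward (5.57%, against 6.55%). On the percentile scale, which depends on list length, there were 76 upward (8.47%, against 7.52%) and 10 downward (1.11%, against 1.54%). The members are 897 of the 1236 constant sites, so nearness to the shares over all constant sites is partly built in. The difference between the members and the sites with all 5 factors was not tested.

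The order of the sites differed between replicates as well as between conditions. Across the 897 members, Spearman's rho of the score percentiles was 0.74 between untreated and rosiglitazone replicate 1 and 0.72 between untreated and rosiglitazone replicate 2. It was 0.59 between the 2 untreated lists and 0.65 between the 2 rosiglitazone lists, and 0.51 for both crossed pairs. The treatment difference of pair 1 and that of pair 2 had a rho of 0.34. These correlations are across sites, which share libraries, and describe the lists. The rank was higher in both rosiglitazone lists than in both untreated lists at 193 members (21.5%), and the reverse held at 144 (16.1%). It was higher in both replicate 2 lists than in both replicate 1 lists at 223 (24.9%), and the reverse held at 191 (21.3%). What separates replicates 1 and 2 was not tested, and their peak names differ as given above.

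The replicates ranked the factor families differently. At the 179 sites with ATF2 and C/EBP, the median rank was 46.9 and 46.0 in the untreated and rosiglitazone lists of replicate 1, and 63.5 and 63.3 in those of replicate 2. Of these sites, 53.1% ranked higher in both replicate 2 lists and 16.2% in both replicate 1 lists. The 217 sites with ATF2 and AP-1 went the other way, with medians of 42.2 and 46.0 in replicate 1 and 30.0 and 34.5 in replicate 2. There 21.7% ranked higher in both replicate 2 lists and 44.7% in both replicate 1 lists. The 333 sites with all 3 families but not all 5 factors had medians between 51.8 and 55.0 in the 4 lists. The median rank of ATF2 with C/EBP was above that of ATF2 with AP-1 in 3 lists and equal to it in rosiglitazone replicate 1.

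**Figure D3:**
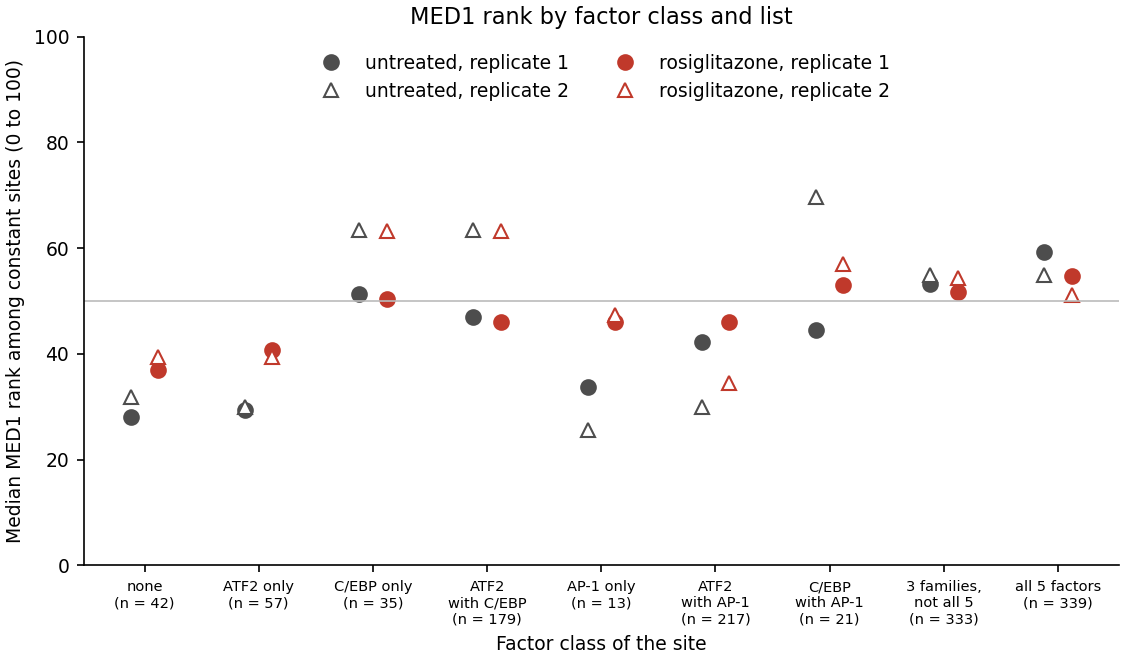
Median MED1 rank among the 1236 constant sites (vertical axis, 0 to 100) by factor class, with a point for each of the 4 MED1 lists. Circles are replicate 1 and triangles replicate 2. At ATF2 with C/EBP the triangles lie above the circles in both conditions (63.5 and 63.3 against 46.9 and 46.0), and at ATF2 with AP-1 they lie below.

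Sites with few factors stood lower in the untreated lists and had larger upward differences. The 42 sites with no factor had median ranks of 28.0 and 31.9 untreated and 36.9 and 39.5 after rosiglitazone. Their median rank difference was 6.5 points (8.7 in pair 1 and 5.4 in pair 2), and the rank was higher in both pairs at 22 sites and lower in both at 6. The 70 sites with 1 factor had a median difference of 5.5 (8.3 and 1.9 in the pairs), and the 148 with 2 had 3.3. The 331 sites with 3 factors had -1.4 for the mean of the pairs, but -0.1 in pair 1 and 1.1 in pair 2, with 115 sites higher in both pairs and 103 lower in both. The 306 with 4 factors had -0.8, which was 0.2 within pair 2 alone, 0.6 without rosiglitazone replicate 1 and -6.7 with lists of equal length. The sign of both values thus depends on the lists used. The 339 sites with all 5 factors had -2.5. Split by mean MED1 rank at the median of the constant sites, members with 0 or 1 factor had 3.9 points among the lower 50% and 7.3 among the upper 50%. Members with 4 factors had -1.5 and 0.1.

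Among the 10 members with the highest mean percentile, 6 held CEBPa, CEBPb and ATF2, and 1 held FOSL2. Of all 897 members, 167 held these C/EBP factors with ATF2 alone, 227 with JUND added and 33 with FOSL2 added. FOSL2 was at 24.1% of all members. The 10 sites were not tested against these shares. The highest of the 10 lay on chromosome 7 from 25100658 to 25100946 (mm8, as are all coordinates here). Its MED1 scores were 16.68 and 8.62 untreated and 25.68 and 17.16 after rosiglitazone, with percentiles from 99.6 to 100.0. It held peaks of CEBPa, CEBPb, ATF2 and JUND and was in all 6 cofactor lists. The next, on chromosome 3 from 10272671 to 10272919, held both C/EBP factors and ATF2, with MED1 scores of 9.39, 9.57, 18.08 and 19.78 in the same list order. A site on chromosome 2 from 163684415 to 163684640 had 9.02, 11.56, 17.66 and 25.74. The percentiles of these 3 sites ran from 99.4 to 100.0 over the 4 lists.

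Strong MED1 peaks also occurred with few or no factor peaks. The site on chromosome 7 from 34878053 to 34878361 held none of the 5 factors, and its MED1 scores were 9.09 and 9.38 untreated and 15.01 and 18.83 after rosiglitazone. It was in all 6 cofactor lists, with CBP scores of 4.71 untreated and 3.00 after rosiglitazone, and p300 scores of 5.90 and 6.32. A site on chromosome 3 from 10190944 to 10191219 held only a CEBPb peak, of score 1.03, with MED1 scores of 9.02, 7.96, 19.79 and 17.40. CBP and NCOR peaks were there in the untreated lists only, with scores of 2.35 and 4.14, while p300 scored 3.31 untreated and 4.19 after rosiglitazone. On the same stretch of chromosome 3, the site from 10196337 to 10196617 held only ATF2 and the site from 10199086 to 10199302 held no factor. The strongest site with only AP-1, on chromosome 5 from 17347547 to 17347824, held JUND and had MED1 scores of 5.26, 6.63, 8.02 and 12.16.

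By percentile, the 5 members with the largest upward MED1 difference in both pairs held no AP-1 peak, and 3 of them held no factor. This depends on the scale: by rank among constant sites, 4 of the 5 largest upward differences were at sites with AP-1 and all 5 sites held ATF2, a comparison added after seeing the data. Over all members, 4.7% held no factor, 60.0% JUND, 24.1% FOSL2 and 87.6% ATF2, and the few sites were not tested against these shares. Sites with no factor had median untreated percentiles of 62.7 and 66.2, against 77.4 and 76.7 over all members, which leaves them more room to rise. The 5 members with the largest downward difference all held AP-1 and ATF2 by percentile, as did the 5 by rank, and 550 of the 897 members (61.3%) held both. In each direction, 1 of the 5 sites by rank was also among those 10 named by percentile. The sites were ranked by the smaller of their 2 pair differences, so their sizes are a description. The site on chromosome 13 from 51885178 to 51885410, with no factor, had MED1 percentiles of 17.2 and 17.8 untreated and 83.2 and 79.9 after rosiglitazone. On chromosome 16 from 35123280 to 35123532, at a site with both C/EBP factors and ATF2, the percentiles were 41.9 and 50.0 and then 94.4 and 96.5. That site had CBP in the rosiglitazone list only, with a score of 1.69. In the other direction, the site on chromosome 1 from 39030789 to 39031126, with ATF2 and JUND, had 78.8 and 50.0 untreated and 41.8 and 9.2 after rosiglitazone. The site on chromosome 16 from 25763801 to 25764074, with 4 factors, had 87.4 and 73.9 and then 41.8 and 38.1, and its CBP peak was in the untreated list only.

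All 3 cofactors were present at most of the sites. CBP peaks overlapped 816 of 897 members untreated (91.0%, 88.9 to 92.7%) and 770 after rosiglitazone (85.8%, 83.4 to 88.0%). p300 was at 844 (94.1%) and 856 (95.4%), and NCOR at 843 (94.0%) and 857 (95.5%). Both conditions are counted on the same sites, so overlap of the intervals does not compare the conditions. With a lone list of each cofactor in each condition, these values compare libraries, and no test between conditions was possible. The CBP rosiglitazone list held 9515 peaks against 15383 untreated, and what part of the lower share goes with the shorter list was not tested. With all lists cut to 4656 peaks, which also changes the members, the CBP shares were 70.2% untreated and 81.6% after rosiglitazone, the opposite order.

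All 6 cofactor lists held a peak at 676 of the 897 members (75.4%, 72.4 to 78.1%). Over all 15759 MED1 sites the share was 24.1%, and among the 339 sites with all 5 factors it was 96.8% (94.3 to 98.2%). It was 50.3% at the sites without all 5 factors in 3 of 4 MED1 lists, 23.4% at the 743 sites in both rosiglitazone lists alone, and 36.3% at the 226 in both untreated lists alone. The difference between these classes was not tested. Only 1 member was in no cofactor list, on chromosome 11 from 87287698 to 87287929. It held ATF2 and FOSL2, with MED1 percentiles of 3.3 and 50.0 untreated and 46.2 and 48.2 after rosiglitazone.

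The share in all 6 cofactor lists climbed with the number of factors. It was 23.8% with none (10 of 42 sites, 13.5 to 38.5%), 55.7% with 1 (44.1 to 66.8%), 61.5% with 2 (53.5 to 68.9%), 76.1% with 3 (71.3 to 80.4%) and 92.8% with 4 (89.4 to 95.2%). The intervals for 1 and 2 factors overlap. The order also held among weaker and stronger MED1 sites taken separately, divided at the members' median mean percentile of 77.7. Below it the shares ran 23.1, 47.5, 55.8, 73.5 and 90.8%, and above it 25.0, 66.7, 69.4, 78.8 and 94.3%. Among the weakest 25% of constant sites, 64.2% of the members (58.0 to 70.0%) were in all 6 lists, against 97.0% of the sites with all 5 factors (89.6 to 99.2%). Among the strongest 25% the shares were 81.5% (75.7 to 86.2%) and 99.0% (94.4 to 99.8%).

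**Figure D4:**
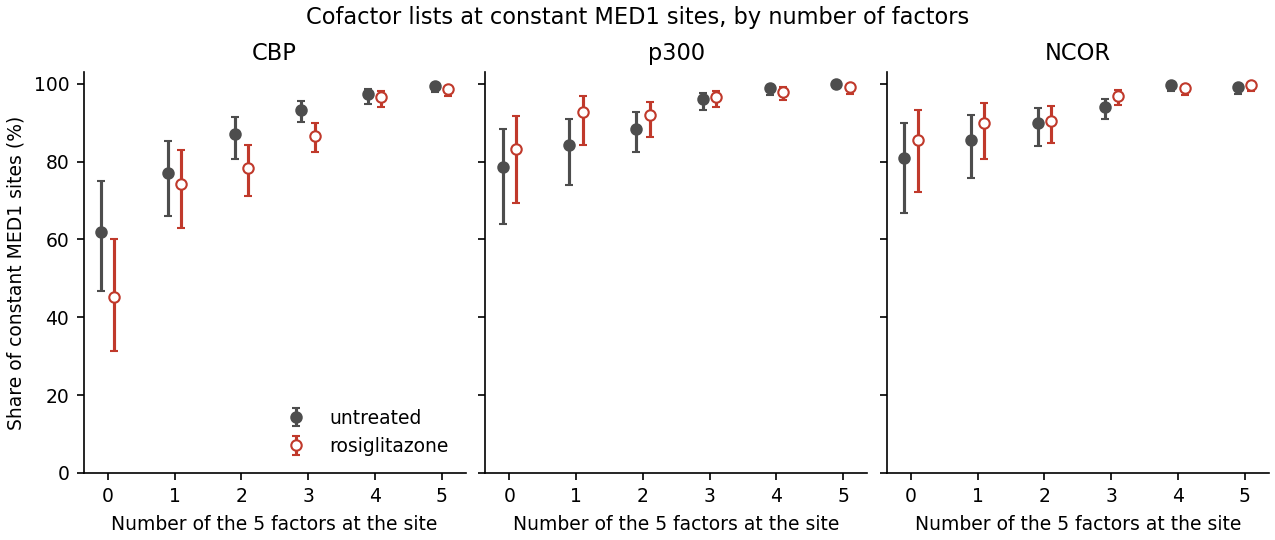
Share of constant MED1 sites that overlap a CBP, p300 or NCOR peak (vertical axis, percent) by the number of the 5 factors present, in the untreated and the rosiglitazone list. Bars are 95% Wilson intervals and cover counting error only; the points at 5 factors are the 339 sites outside the described set. CBP at sites with no factor is lowest, at 61.9% untreated and 45.2% after rosiglitazone.

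More members had CBP in a single condition than had p300 or NCOR in a single condition. Of the 854 members with CBP in either list, 84 (9.8%) had it untreated only and 38 (4.4%) after rosiglitazone only. Over all 17003 CBP sites those shares were 44.1% and 9.53%, so both were lower at the members. They were lower still at the constant sites with all 5 factors, at 1.2% and 0.6%. Sites without all 5 factors in 3 of 4 MED1 lists had 16.8% and 9.7%. For p300, 24 of 880 members (2.7%) were in the untreated list only and 36 (4.1%) in the rosiglitazone list only, against 29.1% and 22.5% of all 19368 p300 sites. For NCOR, 17 of 874 (1.9%) and 31 (3.5%) stood against 17.9% and 27.6% of all 34703 sites. At the constant sites with all 5 factors the shares were 0.9 and 0.0% for p300 and 0.3 and 0.9% for NCOR. Low shares in a single condition are thus not particular to the members. Peaks found in a single condition had lower percentiles: CBP peaks in the untreated list only had a median percentile of 62.5, against 80.6 at members with CBP in both lists. CBP peaks in the rosiglitazone list only had 39.9, against 77.5.

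By factor class, CBP presence went from 92.7% untreated (88.0 to 95.7%) to 79.9% (73.4 to 85.1%) at the 179 sites with ATF2 and C/EBP. There 28 sites had CBP untreated only and 5 after rosiglitazone only. At the 333 sites with all 3 families the share was 96.7% in both conditions, with 10 sites each way. At the 217 sites with ATF2 and AP-1 it was 94.0 and 88.5%, with 17 sites untreated only and 5 after rosiglitazone only. At the 42 sites with no factor it was 61.9 and 45.2%, and 14 sites had CBP untreated only and 7 after rosiglitazone only. Whether these classes differ in the CBP difference was not tested. p300 stood at 96.1% in both conditions at the ATF2 and C/EBP sites.

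Where a cofactor was in both lists, its own rank shifted little. CBP at 732 members had a median percentile of 80.6 untreated and 77.5 after rosiglitazone, and it was higher at 276 and lower at 456. p300 at 820 members went from 86.0 to 87.6, higher at 461 and lower at 359. NCOR at 826 members went from 90.3 to 91.1, higher at 455 and lower at 371. The p300 difference was wider at sites with few factors: with none, the median was 54.9 untreated and 66.9 after rosiglitazone, higher at 23 of 29 sites. With 4 factors it was 91.0 and 90.7. These percentiles move with list length too, and each rests on 1 library per condition.

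MED1 and coactivator differences went together at some sites. The 38 members with CBP after rosiglitazone only had a median MED1 rank difference of 11.2 points (12.3 in pair 1 and 12.4 in pair 2), and the rank was higher in both pairs at 27 of them and lower in both at 3. Leaving out each MED1 list in turn gave 6.9 to 15.6 points. It was 12.5 points among the lower 50% of constant sites by mean MED1 rank, 4.3 among the upper 50%, and 6.6 with lists of equal length. The 36 with p300 after rosiglitazone only had 8.9 points, higher in both pairs at 19 and lower in both at 9. This was 0.4 points without untreated replicate 1 and 13.4 with lists of equal length. Over all 897 members, the rank was higher in both pairs at 35.7% and lower in both at 29.3%. At the 732 members with CBP in both lists it was higher in both pairs at 251 and lower in both at 215. The 84 with CBP untreated only had -2.1, which turned to 1.2 without untreated replicate 2 and to 0.9 without rosiglitazone replicate 1. With lists of equal length their value was -6.6. The 24 with p300 untreated only had -5.2, with -3.5 in pair 1 and -11.7 in pair 2, and -1.4 without untreated replicate 2. Among the lower 50% of constant sites it was -1.6, and with lists of equal length -4.7. For the corepressor NCOR the medians were 1.5 at the 31 rosiglitazone-only sites and 2.8 at the 17 untreated-only sites. These groups are small and hold a median of 2 to 2.5 factors, against 3 at sites with the cofactor in both lists.

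**Figure D5:**
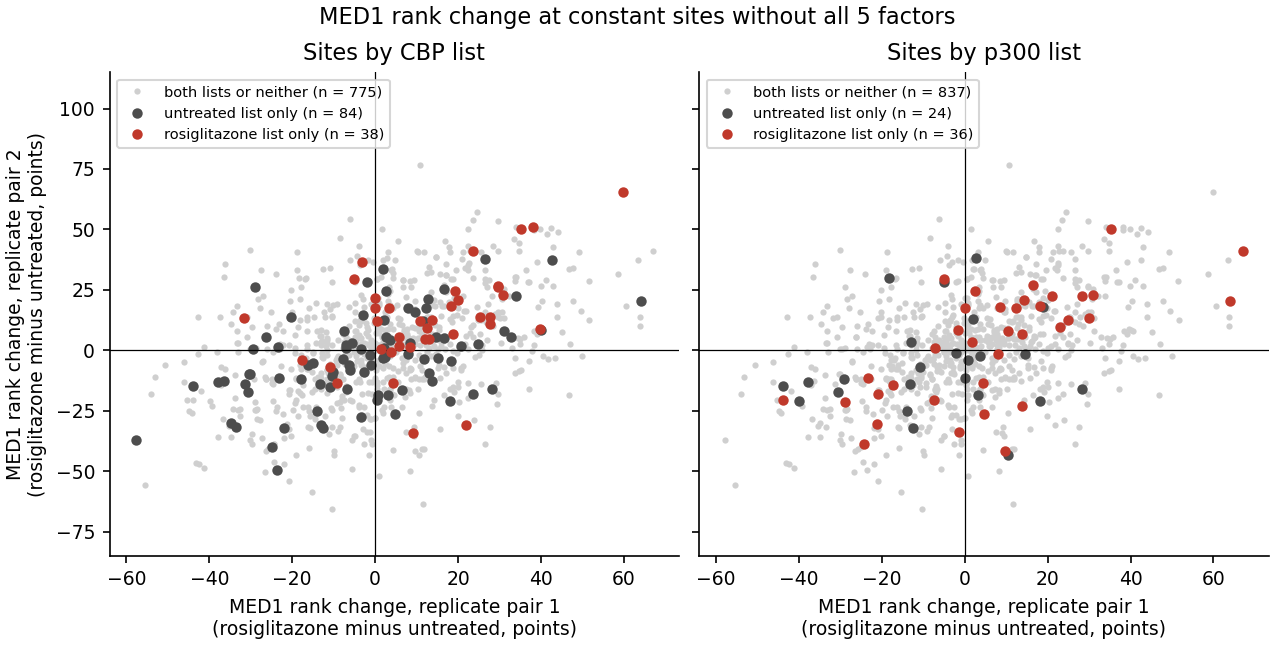
MED1 rank difference, rosiglitazone minus untreated in points of rank among constant sites, in replicate pair 1 (horizontal axis) and pair 2 (vertical axis) for the 897 sites. Colour gives the list in which CBP (left) or p300 (right) was found. Of the 38 red points in the CBP panel, 27 lie in the upper right, where both pairs are above 0.

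Over members with the cofactor in both lists, Spearman's rho between the MED1 and the cofactor percentile difference was 0.35 for p300 (0.36 with pair 1 and 0.24 with pair 2, 820 sites). It was 0.23 for CBP (0.25 and 0.14, 732 sites) and -0.05 for NCOR (826 sites). For levels, rho between the MED1 and cofactor percentile was 0.63 untreated and 0.57 after rosiglitazone for p300. It was 0.53 and 0.47 for CBP, and 0.47 and 0.40 for NCOR. The points are sites of the same few libraries, and no p is given.

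The 42 sites with no factor were not all far from factor peaks. A peak of any of the 5 factors lay within 1000 bp of 15 of them, the median distance was 1646 bp, and 6 were beyond 10000 bp, the farthest at 25207 bp. All 42 overlapped at least 1 cofactor peak, since no member lacked both factors and cofactors, and 10 were in all 6 cofactor lists. Those with the highest mean MED1 percentile among the 10 lay on chromosome 7, from 34878053 to 34878361 and from 34850132 to 34850384. The third, on chromosome 3 from 10199086 to 10199302, had MED1 percentiles of 72.4 and 94.3 untreated and 98.4 and 99.0 after rosiglitazone.

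Distances between peak centres were short, which the rule favours, since only overlapping 200 bp windows were joined or counted as present. Members were 202 to 584 bp wide, with a median of 270 bp. MED1 centres of 2 lists were a median of 31 to 36 bp apart. Median distances from the mean MED1 centre were 26 bp for CEBPa and CEBPb, 29 for ATF2, 27 for JUND and 38 for FOSL2. For the cofactor lists they were 24 to 27 bp.

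Constant sites lay near each other in places. Within 12.5 kb, 318 of 897 (35.5%) had another constant site, as did 99 of the 339 sites with all 5 factors (29.2%) and 23 of the 42 members with no factor (54.8%). Linked at that distance, constant sites formed 174 chains, 72 of which held both members and all-5 sites. The longest chain lay on chromosome 8 from 127712730 to 127762413, with 6 members and 1 site with all 5 factors, and 2 of the members held no factor. A chain of 6 on chromosome 9 from 102582280 to 102614252 held 5 members, and a chain of 4 on chromosome 13 from 37884422 to 37890787 held 3, of which 2 had no factor. Chromosome 2 held 88 members (9.8%, against 9.1% of all MED1 sites) and X held 8 (0.9%, against 1.0%). Other chromosomes were further from the shares of all MED1 sites. Chromosomes 16 (6.1%, against 3.7%) and 8 (7.2%, against 5.0%) held more, and chromosomes 15 (3.3%, against 5.0%) and 10 (3.1%, against 4.6%) held fewer. These differences were not tested.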

How the data were processed

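ChIP-seq peak lists of 15 libraries were used. The 10 GRO-seq samples and 1 input were not analysed here. The genome build was mm8 and the tools named were HOMER, Bowtie and bedtools, per the submitters' processing notes. Tool versions and peak thresholds are not given in the sources used. The deposited lists give 200 bp windows with the peak score the authors gave, for each library, and scores were used only within a list. Read depth is unknown, so no precision follows from it.

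Windows overlapping by at least 1 bp were joined into sites. Each site took its best peak per list, and its percentile counted tied scores at 50%. Shares carry 95% Wilson intervals, without a test, because the rule used MED1 and the factors and each cofactor had 1 list per condition. Named sites were the 10 members with the highest mean MED1 percentile, the 5 largest differences each way by the smaller pair difference, the highest per factor class and per cofactor state, and up to 3 in no cofactor list or in all 6 without a factor. Members, lists and rules were chosen with earlier results of these data known. Alternatives were an overlap of 50%, the upper 50% of each list, lists of equal length, ranks among constant sites, each MED1 list left out, and replicate pairs taken separately. The replicate numbers are not stated to pair samples. The code was tested on simulated data. Python 3.11.15, numpy 2.4.6 and scipy 1.17.1 were used.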

Additional observations from a re-analysis of the deposited data

How the results depend on the processing

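Leaving out each MED1 list in turn, which also changes the members, gave 1012 to 1376 members in place of 897. It was 1376 without untreated replicate 2. The share of constant sites without all 5 factors was then 73.5 to 76.7%. It was 82.6% with the upper 50% of each list and 95.1% with lists of equal length, which drop most factor and cofactor peaks. With lists left out, CBP shares were 82.2 to 90.1% untreated and 77.5 to 83.6% after rosiglitazone, p300 shares 88.1 to 92.9% and 90.9 to 93.3%, and NCOR shares 91.9 to 92.7% and 93.8 to 94.8%. With lists of equal length CBP stood at 70.2% untreated and 81.6% after rosiglitazone, p300 at 82.7 and 87.4%, and NCOR at 76.0 and 76.6%. With the upper 50% of each list CBP stood at 88.9 and 83.1% and NCOR after rosiglitazone at 97.0%. An overlap of 50% gave 88.8% for untreated CBP. Among members in the lower 50% by mean MED1 percentile the shares were 88.4% for untreated CBP and 90.8 and 93.5% for NCOR. Among those in the upper 50% they were 93.5%, and 97.1 and 97.6%, with 96.9% for p300 after rosiglitazone.

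The median MED1 percentile difference of 5.3 was 5.3 with an overlap of 50% and 6.9 with the upper 50% of each list. It was 0.1 with lists of equal length, 0.5 as a rank among constant sites, and 4.6 to 5.7 with MED1 lists left out. Taken as a replicate block, the pairs gave 4.4 and 4.3. Splits by factor number and cofactor state were added after seeing the data. The rank difference at 4 factors was -6.7 with lists of equal length. It changed sign to 0.2 within pair 2, 0.1 in the upper 50% of constant sites and 0.6 without rosiglitazone replicate 1 (-1.2 to 0.6 over the lists left out). With CBP in the untreated list only, the rank difference was -6.6 with lists of equal length. It changed sign to 1.2 without untreated replicate 2 and 0.9 without rosiglitazone replicate 1 (-5.4 to 1.2). The cause was not tested. Of 132 alternative values, 55 were counted as unchanged, 72 as moved and 5 as changed in sign. The limit for a move differed between results, so these counts are no common measure of stability. Member numbers of 674 (upper 50% of each list) and 1214 (without untreated replicate 1) were counted as unchanged from 897. That of 1376, without untreated replicate 2, was counted as moved. The median percentile difference with an overlap of 50% was counted as moved, although both values round to 5.3. The medians of the 2 pairs had an SD of 0.03. Absence from a list is not absence of the protein, since depth is unknown.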
